A study of Homo sapiens with 12 samples.

Results

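Expression was compared between 16HBE cells expressing dominant-negative Ras (DN Ras) and 16HBE cells treated with a MEK inhibitor. 16HBE is an immortalised human bronchial epithelial cell line. The comparison used 6 of the 12 arrays of the series, 3 DN Ras arrays and 3 MEK inhibitor arrays, and these were taken by their sample labels. DN Ras cells had been stably infected with the retroviral vector pQCXIP carrying a DN Ras construct that the titles call N17. MEK inhibitor cells carried pQCXIP without the insert and received GSK1120212 at 500 nM for 4 days. The 3 control arrays, from cells with the same empty vector and DMSO for 4 days, served only as a reference level and entered no test. An ERK inhibitor group was used only in the joint normalization. For DN Ras cells the labels give no solvent and no time of exposure, and they do not say whether the infected cells were a pool or a single clone. A difference between the groups therefore cannot be told apart from a difference in construct, solvent or duration. The design text names 3 independent experiments on this line, and the p-values cover the variation from experiment to experiment and nothing wider.

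Ras proteins are small GTPases that pass signals from growth factor receptors to several effectors. The Raf kinases are 1 branch, and they activate MEK, which in turn phosphorylates ERK. PI3-kinase and the exchange factors of Ral lie on other branches. A dominant-negative Ras with asparagine at residue 17 binds the exchange factors that load Ras with GTP and so keeps normal Ras inactive, whereas a MEK inhibitor acts below the Raf kinases. GSK1120212 is the drug trametinib, an allosteric inhibitor of MEK. In airway epithelium, ERK activity is known to drive immediate-early genes, feedback inhibitors of the pathway and chemokines such as CXCL8.

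Values are log2 intensities after background correction and quantile normalization, and differences are DN Ras minus MEK inhibitor ± SE from limma, with 3 arrays in each group. A gene was called when its Benjamini-Hochberg adjusted p was under 0.05 over all genes tested. Each array detected 16897 to 17924 of 47322 probes at a detection p under 0.01, with a median of 22 beads per probe. Across genes, arrays correlated at r = 0.977 to 0.993 within the groups and at 0.972 to 0.984 between them, where genes are not independent replicates. All 10 epithelial markers on the array, EPCAM and CDH1 among them, were detected on every array of the 3 groups. None of the 10 secretory markers was detected on all 3 arrays of a group, and 0 were tested. Of 9 ciliated cell markers on the array, TUBA1A and CAPS were detected on every array of the 3 groups, while the ciliated cell regulator FOXJ1 was detected on none. Of 14 leukocyte markers, CD14, CD68, CSF1R and FCGR3A were detected on every array of the 3 groups and CD74 also on all control arrays, while PTPRC, CD3D and CD3E were detected on none. No marker of these types was called, and their part in the results was not tested. HRAS, a Ras family gene named by rule, read 9.09, 8.95 and 8.93 on the DN Ras arrays and 9.14, 9.20 and 8.95 on the MEK inhibitor arrays. The labels do not name the Ras gene of the construct, so HRAS does not check it.

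DN Ras replicate 3 stood apart from the other arrays of its group. On it 83 genes lay at least 2-fold beyond both other DN Ras arrays, against 20 or fewer on any other of the 6 arrays. Of these 83 genes, 53 were higher and 30 lower than on DN Ras 1 and 2, and 74 lay nearer to the MEK inhibitor mean than to the mean of DN Ras 1 and 2. The genes were picked for their distance from DN Ras 1 and 2, which favours that last count. No share over other genes was taken, so it does not show a likeness to the MEK inhibitor arrays. IGFBP5, a secreted binder of insulin-like growth factors, read 6.09, 6.33 and 10.54 on the DN Ras arrays. LCN2, an iron-scavenging lipocalin of epithelial defence, read 9.71, 9.89 and 7.03. Counts below are therefore given with and without this array, as are the differences of single genes where its removal changed a call or moved the value most.

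DN Ras and MEK inhibitor cells differed in few genes at this sample size. Of 10189 genes tested, 150 were called (1.47%), with 85 higher with DN Ras (0.834%) and 65 lower (0.638%). At least 2-fold apart were 65 of the called genes, 34 higher and 31 lower with DN Ras. The median difference of all genes was 0.0076. The 3 arrays of each group did not overlap for 2201 genes (21.6%), and all 150 called genes were among them. At an unadjusted p under 0.05 there were 1714 genes. Of 2977 probes with no gene symbol, 14 were called (0.47%), 11 higher and 3 lower with DN Ras, and leaving out DN Ras 3 made it 68. The called genes raised most with DN Ras over the MEK inhibitor were the crosslinking enzyme gene TGM2, the chemokine gene CXCL8, MYEOV, the transcriptional inhibitor gene ID1 and the chemokine gene CXCL1, in order of fitted difference. The called genes lowest with DN Ras against the MEK inhibitor were those of the microfibril protein MFAP5, the muscle proteins ACTA1 and TNNC1, the natriuretic peptide NPPB and the trafficking protein NSG1, likewise in order.

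The number of called genes depended on single arrays. Without DN Ras 3, 621 of 10305 genes were called (6.03%), 363 higher with DN Ras (3.52%) and 258 lower (2.5%), and they included all 150 genes called with it. DN Ras 3 lay farthest from its group, so leaving it out lowers the spread within the group and favours more calls. Adjusted p from that fit, here and below, are therefore likely too small, above all for genes named because they passed only there. Without DN Ras 2 the count was 38, without MEK inhibitor 2 it was 22, and without MEK inhibitor 3 it was 20. In all 6 fits that left out 1 array, 17 genes were called. The 9 of these higher with DN Ras were TGM2, CXCL8, MYEOV, ID1, FUCA1, EPHA2, PHLDA1, MAOA and NMB. The 8 lower with DN Ras were ACTA1, MYL7, FBN2, FOLR1, NSG1, TIMP3, UPK2 and H2AC25.

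**Figure D1:**
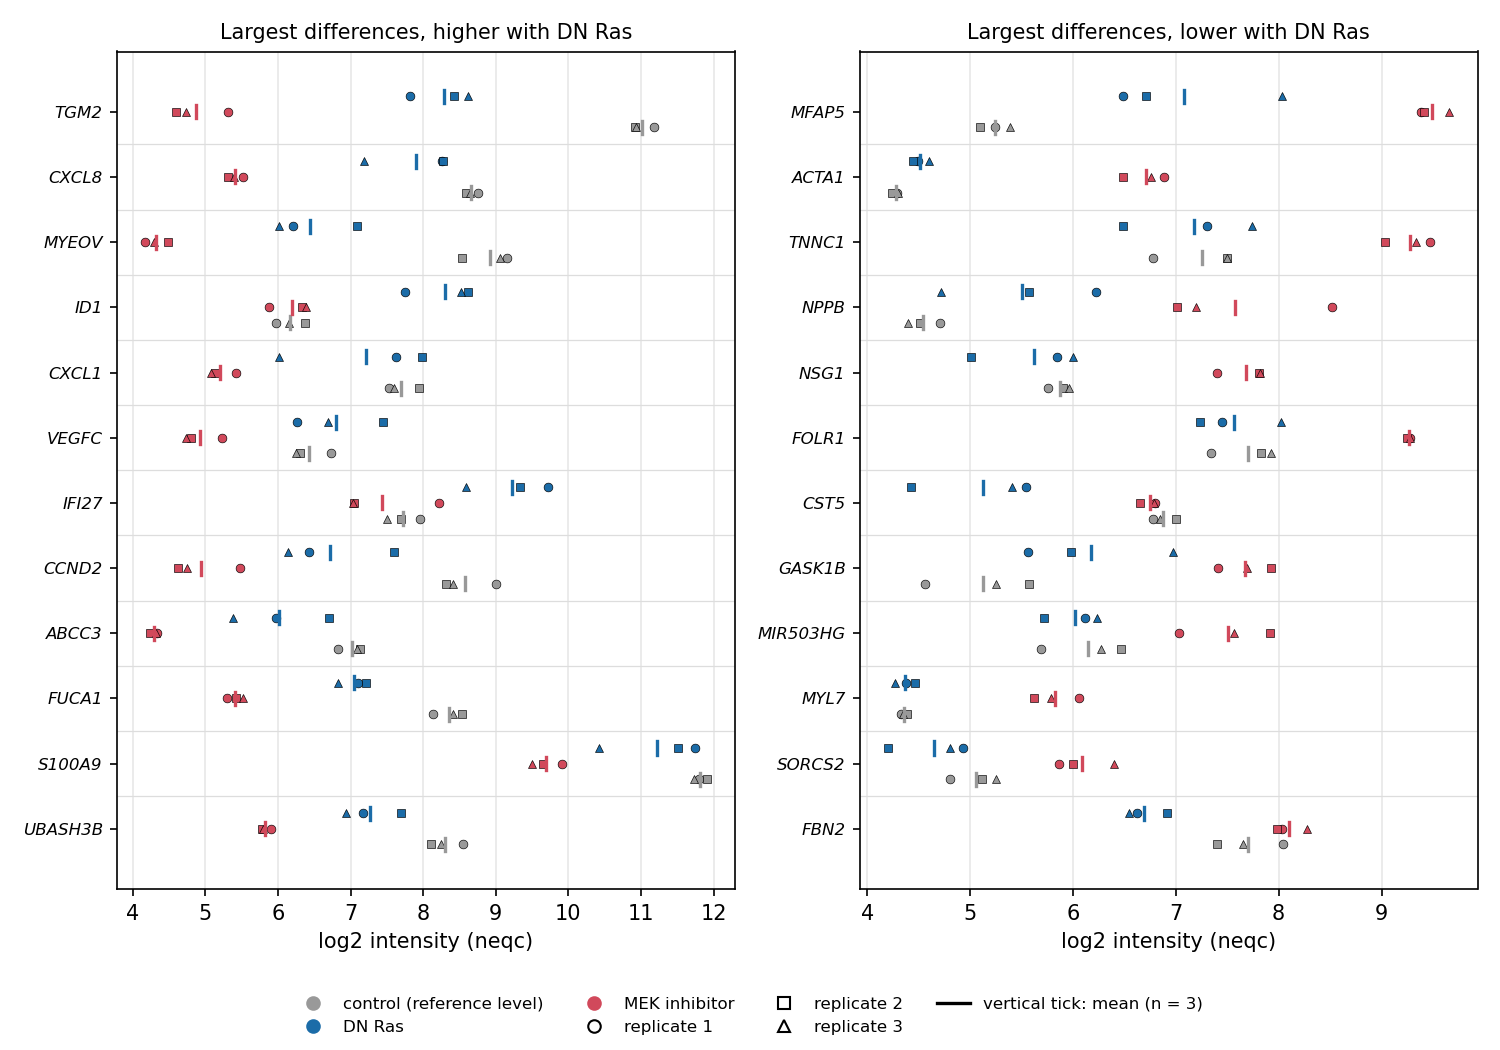
Log2 intensity on each array (x axis) of the 12 genes with the largest called difference in each direction, with DN Ras in blue, MEK inhibitor in red and control in grey; marker shapes are replicates and ticks are group means of 3 arrays. The blue and red points of each gene do not overlap, and for TGM2 the DN Ras arrays read 7.81 to 8.62 and the MEK inhibitor arrays 4.59 to 5.30.

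Promoter sequences are shown for 4 of the 24 genes with the largest differences, a choice made after the values were seen. They had 1 listed promoter each, and it held a match to any of 3 motifs. Any of the 24 with several listed promoters, or with none, was left out of the search. A gene that is not shown may therefore still hold a match. The motifs were TGANTCA, a site of the ERK-responsive AP-1 factors, the NF-kB site, which is found in many chemokine promoters, and the CArG box, the site of serum response factor in muscle and cytoskeletal genes. The sequences are from RefSeq on GRCh38.p14, cover the 150 bases before the gene's start, run 5′ to 3′ along the gene's strand, and have the motif in capitals. CXCL8 lies on the plus strand at chr4:73740419-73740568, CXCL1 on the plus strand at chr4:73869243-73869392, ACTA1 on the minus strand at chr1:229434095-229434244, and MYL7 on the minus strand at chr7:44141333-44141482.
CXCL8: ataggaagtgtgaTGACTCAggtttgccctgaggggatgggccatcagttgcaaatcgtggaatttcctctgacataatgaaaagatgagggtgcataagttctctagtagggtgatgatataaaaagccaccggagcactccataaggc
CXCL1: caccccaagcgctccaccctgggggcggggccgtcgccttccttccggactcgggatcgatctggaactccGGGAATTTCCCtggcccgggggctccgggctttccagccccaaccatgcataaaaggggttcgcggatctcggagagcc
ACTA1: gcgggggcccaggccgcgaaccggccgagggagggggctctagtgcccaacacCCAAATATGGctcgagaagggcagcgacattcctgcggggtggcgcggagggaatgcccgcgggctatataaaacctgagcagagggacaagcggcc
MYL7: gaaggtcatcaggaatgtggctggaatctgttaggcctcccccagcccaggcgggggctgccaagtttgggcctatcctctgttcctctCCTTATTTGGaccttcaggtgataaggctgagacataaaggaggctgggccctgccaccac
With the base before the start as -1, the TGANTCA match of CXCL8 spanned -137 to -131. In CXCL1 the capitals, -79 to -69, hold 2 overlapping NF-kB matches. An NF-kB match had to fit GGGRNWYYCC in full, where R is A or G, W is A or T, Y is C or T and N is any base. The stretch tggaatttcc of CXCL8 departs from this pattern at its opening base alone, so it is neither in capitals nor counted. Lower case therefore does not show that a promoter lacks an NF-kB site. The CArG box of ACTA1 spanned -97 to -88 and that of MYL7 -61 to -52. Both strands were searched over 250 bases before the start of 84 called genes with 1 promoter in the table. TGANTCA was in 4 of the 50 genes higher with DN Ras (8%) and 5 of the 34 lower (14.7%), against 6.57% of all 35116 promoters. The NF-kB site was in 6 of 50 (12%) and 2 of 34 (5.88%), against 5.21%. The CArG box was in 1 of 50 (2%) and 2 of 34 (5.88%), against 1.16%. The 35116 promoters include those of genes with several promoters and of genes not tested here, so these shares are not of like sets. The like set, 5932 tested genes with 1 promoter, was not counted. These counts are descriptions of sequence and were not tested.

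PHLDA1, EPHA2 and SPRY2, which report MEK/ERK activity, were higher with DN Ras than with the MEK inhibitor. Of the 10 genes of an ERK output score, 5 passed the filter on low values, 3 were called higher with DN Ras, against 0.834% of all genes, and 0 lower, and the median difference was 0.87 against 0.0076 over all genes. In the fit without DN Ras 3, 4 were higher and 1, EPHA4, was lower, with a median of 1.09, against 3.52% and 2.5% of all genes. With all arrays and no filter on dim probes, the median was 0.55, with 2 called higher and 0 lower. The other members, DUSP4, DUSP6, ETV4, ETV5 and SPRY4, did not pass the filter and were detected on no MEK inhibitor array. Of these, DUSP6 was detected on 2 DN Ras arrays, ETV4 and ETV5 on 1 each, and DUSP4 and SPRY4 on none. On control arrays DUSP6 read 5.93 to 6.21, and on DN Ras arrays 4.48 to 5.08.

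PHLDA1, an ERK-induced gene of the pleckstrin family, read 7.36, 7.19 and 7.12 on the DN Ras arrays and 6.23, 5.89 and 5.73 on the MEK inhibitor arrays. The groups were well separated, with a difference of 1.27 ± 0.15 (adjusted p = 0.0032). EPHA2, an ephrin receptor known as an ERK target, read 6.37, 6.62 and 6.31 with DN Ras and 4.99, 5.10 and 5.33 with the MEK inhibitor, a difference of 1.29 ± 0.14 (adjusted p = 0.0023). SPRY2, a Sprouty inhibitor of receptor signalling that ERK induces as feedback, read 7.12, 7.07 and 6.81 against 6.51, 6.19 and 6.26. Its groups lay closer together, at 0.68 ± 0.14 (adjusted p = 0.042), and it was called in 1 of the 6 fits that left out an array, the fit without DN Ras 3. CCND1, cyclin D1 of the G1 phase, read 10.32, 10.52 and 9.77 against 9.58, 9.12 and 9.30. The groups did not overlap, yet its difference of 0.87 ± 0.20 missed the threshold (adjusted p = 0.056), and without DN Ras 3 it was 1.09 ± 0.16 (adjusted p = 0.0027). EPHA4 differed by -0.17 ± 0.28 (adjusted p = 0.83) and was detected on 1 DN Ras array and on all 3 MEK inhibitor arrays. Without DN Ras 3 its difference was -0.57 ± 0.15 (adjusted p = 0.047).

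With all arrays, feedback inhibitors and early-response genes held 1 or 2 calls per list, all higher with DN Ras. Called higher with DN Ras were 2 of 3 tested Sprouty and SPRED inhibitors, 1 of 4 MAP kinase phosphatases, 1 of 8 AP-1 subunits and 1 of 19 early-response genes, the last being PHLDA1, and 0 members were lower, against 0.834% and 0.638% of all genes. Medians were 0.68, 0.15, 0.27 and 0.23. For 12 of the 19 early-response genes the groups did not overlap, in either direction, against 21.6% of all genes. Without DN Ras 3 the higher and lower counts were 4 and 0 for the inhibitors, 1 of which passed the filter in that fit alone, 1 and 0 for the phosphatases, 2 and 1 for AP-1 subunits and 5 and 1 for early-response genes. ATF3, a stress-induced factor in both of the latter lists, read 7.90, 7.85 and 7.78 with DN Ras and 8.26, 8.41 and 8.54 with the MEK inhibitor, with no overlap. Its difference was -0.56 ± 0.12 (adjusted p = 0.054), and it was the 1 lower call of both lists without DN Ras 3 (adjusted p = 0.044). SRF, serum response factor, differed by -0.46 ± 0.13 (adjusted p = 0.11). SPRED1, which blocks Raf activation by Ras, read 6.54, 6.74 and 6.08 with DN Ras and 5.04, 5.41 and 5.10 with the MEK inhibitor. Its difference was 1.27 ± 0.18 (adjusted p = 0.0097), and the groups did not overlap. DUSP5, a nuclear phosphatase of ERK, read 6.01, 6.23 and 6.28 against 5.40, 5.57 and 5.57, a difference of 0.66 ± 0.13 (adjusted p = 0.033). FOSL1, an AP-1 subunit that ERK stabilises, read 5.78, 5.77 and 4.94 with DN Ras and was detected on no MEK inhibitor array. It was at least 1.56-fold higher with DN Ras (adjusted p = 0.034), with replicate 3 lowest. Here and below, an adjusted p beside such a lower bound belongs to the fitted difference, and the bound itself was not tested. EGR1, an immediate-early zinc finger factor, read 5.55, 5.73 and 6.04 against 5.31, 5.10 and 5.39, and its difference of 0.50 ± 0.15 was not called (adjusted p = 0.13). ERRFI1, a feedback inhibitor of the EGF receptor, differed by 0.58 ± 0.15 (adjusted p = 0.079). The calls of FOSL1 and DUSP5 were each lost when DN Ras 2 or any MEK inhibitor array was left out, with adjusted p up to 0.20 and 0.16, and that of FOSL1 also without DN Ras 1. SPRED1 was lost without MEK inhibitor 3 (adjusted p = 0.080). Median scaling of the arrays, in place of quantile normalization, ended the calls of SPRY2 (adjusted p = 0.14) and DUSP5 (adjusted p = 0.20). Their differences were little changed, at 0.70 and 0.67. In that fit the adjusted p of limma followed the size of a difference more than its spread. IGFBP5, at -0.88, went from an adjusted p of 0.70 to 0.018. The lost calls therefore do not show an effect of the scaling on these genes.

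**Figure D2:**
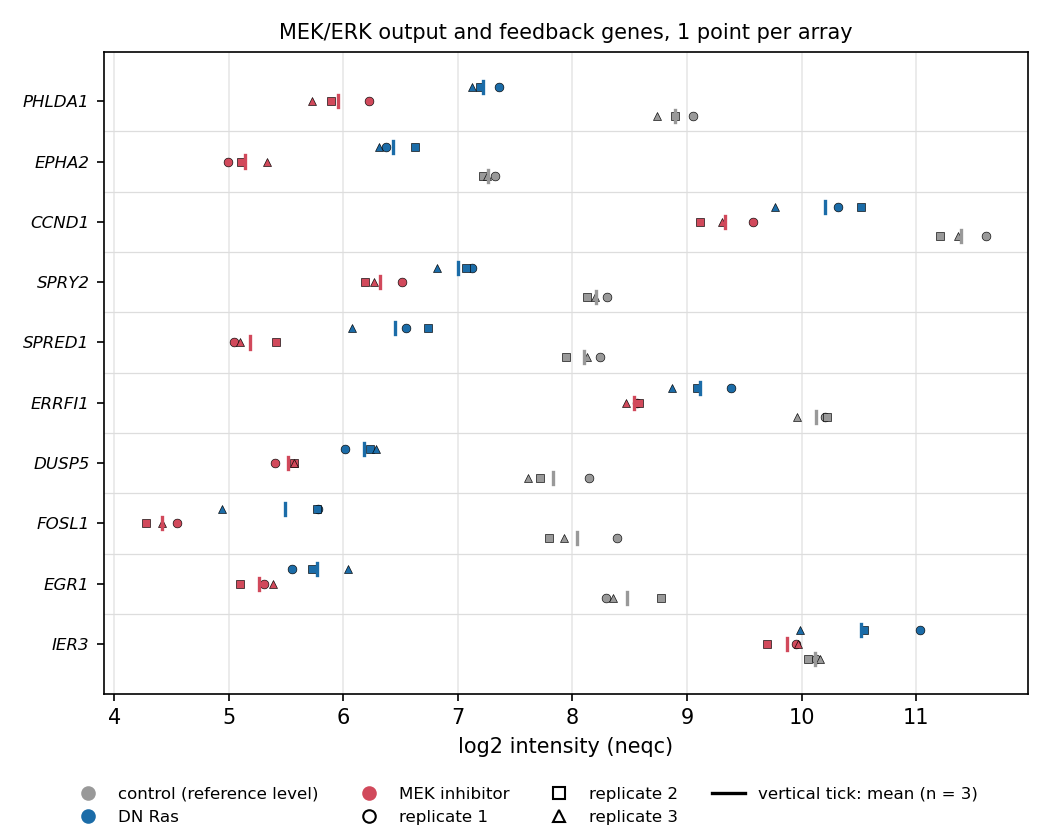
Log2 intensity on each array (x axis) of 10 output and feedback genes of the MEK/ERK pathway, with DN Ras in blue, MEK inhibitor in red, control in grey, replicates by marker shape and group means of 3 arrays as ticks. For PHLDA1 to EGR1 the DN Ras points lie between the MEK inhibitor points and the control points, and for IER3 the DN Ras mean lies above both.

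The control reference lay above both groups for the 8 genes given next, which were picked from those above. It did not for every gene described. ATF3 read 7.03 to 7.22 on the control arrays, below both groups, and EPHA4 was detected on no control array. PHLDA1 read 8.90 ± 0.16 (SD, n = 3) on the control arrays, EPHA2 7.27 ± 0.05, SPRY2 8.21 ± 0.09, SPRED1 8.10 ± 0.15, DUSP5 7.83 ± 0.28 and FOSL1 8.04 ± 0.31. CCND1 read 11.39 ± 0.20 and EGR1 8.47 ± 0.26. The DN Ras mean of each of these 8 genes thus lay between the MEK inhibitor mean and the control mean. The core genes of the cascade itself gave no calls. Of 32 Ras, Raf, MEK and ERK core genes 22 were tested and 0 were called by limma in either direction, with or without DN Ras 3, with a median difference of 0.09. The list of receptor tyrosine kinases, which leaves out the Eph receptors and so the called EPHA2, had 12 tested and 0 called, and EGF receptors and their ligands had 10 tested and 0 called. The fit that left out DN Ras 3 had 2 EGF receptor pathway genes higher and 1 lower with DN Ras, against 3.52% and 2.5% of all genes. Of 9 tested Eph receptors and ephrins, EPHA2 was the 1 called.

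The chemokine genes CXCL8 and CXCL1 were higher with DN Ras. CXCL8, the neutrophil chemokine interleukin-8, read 8.26, 8.28 and 7.18 on the DN Ras arrays and 5.52, 5.31 and 5.39 on the MEK inhibitor arrays. Every DN Ras array lay above every MEK inhibitor array, replicate 3 being the lowest, and the difference was 2.50 ± 0.25 (adjusted p = 0.0021), or 2.86 ± 0.13 without replicate 3. A second CXCL8 probe gave a smaller difference of 1.19 (adjusted p = 0.020). CXCL1, another neutrophil chemokine, read 7.62, 7.99 and 6.01 against 5.42, 5.13 and 5.07, a difference of 2.0 ± 0.40 (adjusted p = 0.036). With DN Ras 3 left out it was 2.60 ± 0.16 (adjusted p = 1.14e-05), and the call was lost when any other array was left out (adjusted p up to 0.20). The control arrays read 8.66 ± 0.08 for CXCL8 and 7.69 ± 0.22 for CXCL1, each above the DN Ras mean. CXCL2 read 6.50, 5.92 and 4.96 with DN Ras and was detected on no MEK inhibitor array. Its bound was at least 1.92-fold apart with all arrays, where it was not called (adjusted p = 0.056), and it was called higher without DN Ras 3 (adjusted p = 0.00029).

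Of 33 NF-kB and cytokine genes 21 were tested, 2 were called higher with DN Ras and 0 lower, against 0.834% and 0.638% of all genes, and the median difference was 0.38. The groups did not overlap for 10 of the 21, where 21.6% of all genes did not. Without DN Ras 3, 10 of these genes were called higher and 1 lower, against 3.52% and 2.5% of all genes, with a median of 0.52. IL6, an inflammatory cytokine, read 9.36, 8.76 and 8.10 with DN Ras against 7.88, 7.96 and 8.04, and differed by 0.78 ± 0.25 (adjusted p = 0.15). The DN Ras arrays spread from just above the MEK inhibitor range to well beyond it. IL1A, the alarmin interleukin-1 alpha, differed by 0.83 ± 0.20 (adjusted p = 0.071). ACKR3, a scavenging receptor of the chemokine CXCL12, went the other way on 2 of 3 arrays. It read 7.73, 7.55 and 10.21 with DN Ras and 9.56, 9.95 and 10.34 with the MEK inhibitor, so replicate 3 alone lay in the MEK inhibitor range. Its difference was -1.45 ± 0.56 with all arrays (adjusted p = 0.22) and -2.31 ± 0.20 without DN Ras 3 (adjusted p = 9.75e-05). ACKR3 read 5.70 ± 0.23 on the control arrays, below both groups.

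Among interferon response genes, IFI27 was the 1 called. Of 40 members 35 were tested, 1 was called higher with DN Ras (0.834% of all genes) and 0 lower (0.638%), and the median difference was 0.35. The groups did not overlap for 15 of the 35, against 21.6% of all genes. With DN Ras 3 left out, 8 were called higher (3.52% of all genes) and 0 lower, with a median of 0.41. IFI27, a mitochondrial protein induced by type I interferon, read 9.72, 9.34 and 8.59 on the DN Ras arrays and 8.22, 7.05 and 7.03 on the MEK inhibitor arrays. Its difference was 1.78 ± 0.34 (adjusted p = 0.031), and MEK inhibitor 1 came closest to the DN Ras range. The call was lost without DN Ras 1, DN Ras 2, MEK inhibitor 2 or MEK inhibitor 3 (adjusted p up to 0.19). IFNB1, interferon beta itself, read 7.40, 7.77 and 7.61 against 7.17, 6.56 and 6.49, a difference of 0.85 ± 0.19 that narrowly missed the threshold (adjusted p = 0.053). IFNL1, a type III interferon of epithelia, differed by 0.86 ± 0.20 (adjusted p = 0.065). IFIT1, which binds foreign RNA, differed by 0.97 ± 0.24 (adjusted p = 0.072). OAS2, a sensor of double-stranded RNA, differed by 0.65 ± 0.15 (adjusted p = 0.065). CXCL10, an interferon-induced chemokine, differed by -0.02 ± 0.28 (adjusted p = 0.98). Of 16 tested MHC class I and peptide loading genes, 0 were called, with a median of 0.10.

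**Figure D3:**
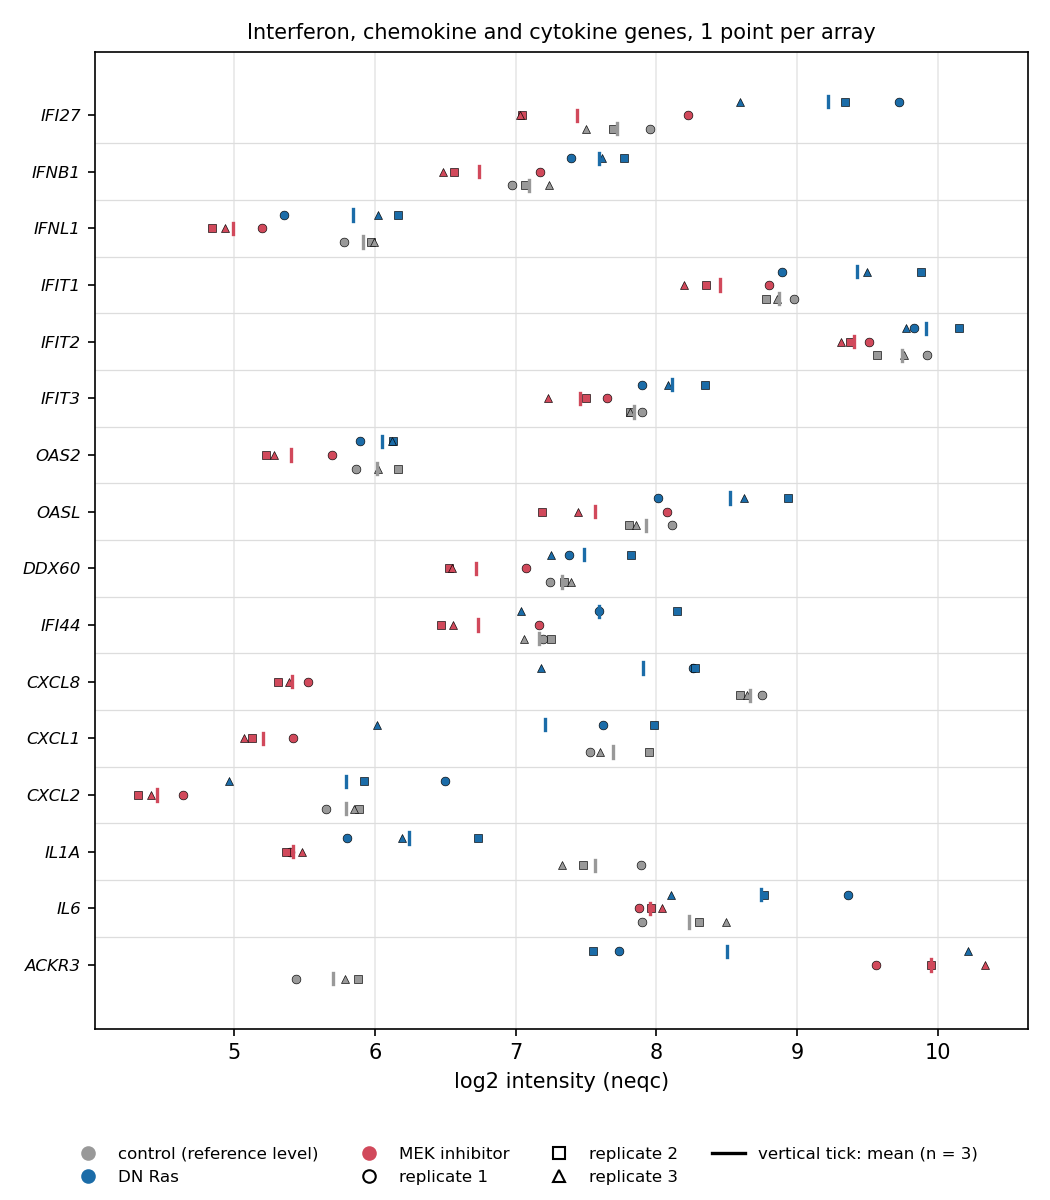
Log2 intensity on each array (x axis) of 10 interferon genes and 6 chemokine or cytokine genes, with DN Ras in blue, MEK inhibitor in red, control in grey, replicates by marker shape and group means of 3 arrays as ticks. DN Ras replicate 3, the blue triangle, is the lowest DN Ras point for CXCL8, CXCL1, CXCL2 and IL6, and for ACKR3 it sits at 10.21 within the MEK inhibitor range of 9.56 to 10.34.

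TGM2 had the largest difference of any called gene. This transglutaminase, which crosslinks extracellular and cytoplasmic proteins, read 7.81, 8.42 and 8.62 on the DN Ras arrays and 5.30, 4.59 and 4.73 on the MEK inhibitor arrays. Only MEK inhibitor 1 passed the detection threshold, so the MEK inhibitor level was near background. The difference was 3.41 ± 0.23 (adjusted p = 0.00012), or 3.24 ± 0.22 without DN Ras 3, and the control arrays read 11.01 ± 0.15, well above both groups. Further TGM2 probes gave 1.89 (adjusted p = 0.00062) and 0.61 (adjusted p = 0.061), so the size of the difference depended on the probe. MYEOV read 6.21, 7.09 and 6.01 with DN Ras and was detected on no MEK inhibitor array, at least 3.00-fold apart (adjusted p = 0.0025). FUCA1, the lysosomal fucosidase, read 7.09, 7.21 and 6.83 against 5.29, 5.43 and 5.51, a difference of 1.64 ± 0.14 (adjusted p = 0.00070). UBASH3B, a tyrosine phosphatase, differed by 1.44 ± 0.18 (adjusted p = 0.0050), and without MEK inhibitor 2 or 3 its adjusted p was up to 0.054.

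ID1 was the only one of the 12 largest higher genes for which the control mean lay below both groups. ID1, a target of BMP signalling that blocks basic helix-loop-helix factors, read 7.75, 8.62 and 8.53 with DN Ras and 5.87, 6.32 and 6.39 with the MEK inhibitor. Its difference was 2.11 ± 0.23 (adjusted p = 0.0023). Control arrays read 6.16 ± 0.20, close to the MEK inhibitor mean of 6.19. Of 10 tested BMP and TGF-beta feedback genes, ID1 was the 1 called, and the median was 0.16. ID2, of the same family, read 6.35, 7.76 and 8.32 against 5.85, 6.47 and 6.23, and its difference of 1.30 ± 0.39 was not called (adjusted p = 0.13). VEGFC, the lymphatic growth factor, read 6.26, 7.44 and 6.69 with DN Ras and 5.22, 4.80 and 4.73 with the MEK inhibitor, where 1 of 3 arrays detected it. It differed by 1.88 ± 0.26 (adjusted p = 0.0088), and without MEK inhibitor 2 or 3 the adjusted p was up to 0.075.

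Over the 12 largest higher genes, the control mean lay above both groups for 9, between them for VEGFC and IFI27, and below both for ID1. Over the 12 largest lower genes it lay below both groups for 5, between them for 6 and above both for CST5. Some of these places are not firm. Of those below both, ACTA1 and MYL7 were detected on no DN Ras and no control array. TNNC1 counts as between, with a control mean 0.08 above the DN Ras mean and a control SD of 0.42. CST5, the protease inhibitor cystatin D, read 5.55, 4.43 and 5.41 with DN Ras, 6.80, 6.66 and 6.79 with the MEK inhibitor and 6.87 ± 0.11 on the control arrays. Its difference between the inhibited groups was -1.62 ± 0.25 (adjusted p = 0.012), and 2 of 3 DN Ras arrays detected it. The adjusted p was up to 0.088 without MEK inhibitor 2 or 3.

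Among cell cycle genes, the D-type cyclin gene CCND2 was the 1 called. CCND2 read 6.43, 7.60 and 6.13 with DN Ras and 5.47, 4.62 and 4.74 with the MEK inhibitor, where 1 of 3 arrays detected it. Its difference was 1.78 ± 0.34 (adjusted p = 0.031), replicate 2 was the highest DN Ras array, and without that array the call was lost (adjusted p = 0.058), as it was without MEK inhibitor 2 or 3 (up to 0.20). A second CCND2 probe gave 0.54 (adjusted p = 0.11). The list of G1 genes had 18 tested and a median of 0.06, and 2 were higher without DN Ras 3, CCND2 and CCND1. Of 30 DNA replication genes and 36 G2/M genes, 0 were called by limma with all arrays or without DN Ras 3, and the medians were 0.04 and -0.12. The differences ran from -0.36 to 0.24 over the replication genes and from -0.34 to 0.33 over the G2/M genes. These ranges lay within 0.5 of 0 on the log2 scale.

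ACTA1, MYL7 and TNNC1, which encode proteins of striated muscle, were called lower with DN Ras, and were picked from the largest differences rather than from a list of muscle genes. MYLK, the myosin light chain kinase, was called in the other direction at 0.92 ± 0.16 (adjusted p = 0.024), and kept its call in 2 of the 6 fits that left out an array (adjusted p up to 0.12). Also called higher was ANKRD1, which is described with the YAP and TEAD targets. ACTA1, skeletal muscle alpha-actin, read 6.89, 6.49 and 6.76 on the MEK inhibitor arrays and was detected on no DN Ras and no control array. It was at least 3.79-fold lower with DN Ras, a bound that was not tested. The adjusted p of 0.00010 belongs to the fitted limma difference of -2.20 ± 0.14. MYL7, the atrial myosin light chain, read 6.06, 5.62 and 5.79 with the MEK inhibitor, was likewise detected on no DN Ras or control array, and was at least 2.05-fold lower with DN Ras (adjusted p = 0.0021). TNNC1, troponin C of slow and cardiac muscle, read 7.30, 6.49 and 7.74 with DN Ras and 9.47, 9.03 and 9.33 with the MEK inhibitor, a difference of -2.10 ± 0.27 (adjusted p = 0.0051). Its DN Ras mean of 7.18 was close to the control mean of 7.25. NPPB, the B-type natriuretic peptide, read 6.22, 5.58 and 4.72 with DN Ras, where 2 of 3 arrays detected it, and 8.51, 7.01 and 7.20 with the MEK inhibitor. Both groups varied widely, and the difference was -2.07 ± 0.41 (adjusted p = 0.036). Its call was lost without DN Ras 2 or any MEK inhibitor array (adjusted p up to 0.13), and that of TNNC1 without MEK inhibitor 3 (adjusted p = 0.055).

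Among 30 tested cytoskeleton and migration genes, 0 were higher and 3 lower with DN Ras, ACTA1, CALD1 and MYL9, against 0.638% of all genes lower, while the list median was -0.04. The counts were the same without DN Ras 3, where 2.5% of all genes were lower. CALD1, the actin-binding caldesmon, read 9.51, 9.50 and 9.45 with DN Ras and 10.63, 10.17 and 10.38 with the MEK inhibitor. Its difference was -0.90 ± 0.14 (adjusted p = 0.012), and DN Ras arrays agreed closely. MYL9, a smooth muscle myosin light chain, differed by -0.99 ± 0.20 (adjusted p = 0.037). TAGLN, the smooth muscle protein transgelin, read 10.56, 10.63 and 9.81 against 11.75, 11.65 and 11.68, a difference of -1.36 ± 0.20 (adjusted p = 0.0099), with replicate 3 the lowest DN Ras array. The call of CALD1 was lost without DN Ras 2 or MEK inhibitor 3, that of TAGLN without MEK inhibitor 2 or 3, and that of MYL9 without any array but DN Ras 3 (adjusted p up to 0.088, 0.080 and 0.17). The cytoplasmic actins differed by -0.03 (ACTB) and 0.10 (ACTG1) and were not called.

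Matrix and mesenchymal genes held further lower calls. Of 13 tested matrix genes, 0 were higher and 3 lower with DN Ras, with a median of -0.21, and of 15 tested mesenchymal genes, 0 were higher and 2 lower, TWIST1 and TAGLN, with a median of 0.05, against 0.638% of all genes lower. POSTN, 1 of the 3 matrix calls, passed the filter on low values through the MEK inhibitor arrays alone. With no filter on dim probes the matrix median was -0.04, with 0 higher and 1 lower, where 17 of 20045 genes were called. In the fit without DN Ras 3, with 3.52% of all genes higher and 2.5% lower, the matrix list had 1 higher and 4 lower, the mesenchymal list 3 higher and 3 lower, and the medians were -0.11 and -0.02. MFAP5, a glycoprotein of elastic microfibrils, read 6.49, 6.71 and 8.03 with DN Ras and 9.39, 9.41 and 9.66 with the MEK inhibitor. Its difference was -2.41 ± 0.32 (adjusted p = 0.0071), and -2.88 ± 0.14 without DN Ras 3, the array nearest to the MEK inhibitor range. FBN2, fibrillin 2 of the same microfibrils, read 6.62, 6.91 and 6.54 against 8.03, 7.98 and 8.27, a difference of -1.41 ± 0.14 (adjusted p = 0.0021). POSTN, the matricellular protein periostin, was detected on all MEK inhibitor arrays and on no DN Ras or control array, at least 1.40-fold lower with DN Ras (adjusted p = 0.018). TWIST1, a transcription factor of epithelial-mesenchymal transition, differed by -1.12 ± 0.16 (adjusted p = 0.0097), with 1 of 3 DN Ras arrays detecting it. The calls of POSTN and TWIST1 were lost without DN Ras 2 or without MEK inhibitor 2 or 3 (adjusted p up to 0.090 and 0.080), and that of MFAP5 without MEK inhibitor 2 or 3 (up to 0.066).

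Fibroblast markers were read beside these genes, since the matrix list shares members with them. Of 12 fibroblast genes, 3 were detected on all DN Ras arrays, 5 on all MEK inhibitor arrays and 3 on all control arrays. Their summed linear intensity was 1252 to 1334 with DN Ras, 1317 to 1410 with the MEK inhibitor and 1204 to 1531 in control. DCN, COL3A1, PDGFRA and THY1 were detected on none of these arrays. In bulk RNA of this kind, fewer cells of a type and less RNA per cell cannot be told apart.

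Epithelial genes were higher with DN Ras where they were called. Of 20 tested junction and keratin genes, 2 were higher and 0 lower with DN Ras, against 0.834% of all genes higher, and the median was 0.29. There were 5 higher and 0 lower without DN Ras 3, against 3.52% higher. ITGA6, the integrin subunit that anchors basal cells to the basement membrane, read 7.55, 8.18 and 8.11 against 6.82, 6.82 and 6.94, a difference of 1.09 ± 0.17 (adjusted p = 0.012). KRT5, the basal cell keratin, read 7.15, 7.81 and 7.50 against 6.90, 6.21 and 6.37, a difference of 0.99 ± 0.21 (adjusted p = 0.043). Both are also the 2 called genes among 6 tested basal cell markers, against 0.834% of all genes higher, with a median of 0.51. Both calls were lost without DN Ras 2 or without MEK inhibitor 2 or 3. A second ITGA6 probe gave 0.66 (adjusted p = 0.068). DST, another basal marker, read 6.51, 6.53 and 6.31 against 6.43, 7.04 and 7.01, lower with DN Ras on average, and was not called. Without DN Ras 3, 4 basal markers were higher and 0 lower, against 3.52% and 2.5% of all genes. CLDN1, a tight junction claudin, read 9.88, 9.66 and 11.50 with DN Ras and 9.0, 9.19 and 8.99 with the MEK inhibitor. With all arrays its difference was 1.29 ± 0.38 (adjusted p = 0.12), and without DN Ras 3, the highest array, it was 0.71 ± 0.14 (adjusted p = 0.013). CDH1, E-cadherin, differed by -0.24 and was not called. The summed linear intensity of the 10 general epithelial markers was 13087 to 15340 with DN Ras, 11925 to 13100 with the MEK inhibitor and 15533 to 17565 in control, so the inhibited groups overlapped.

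Of 18 tested squamous differentiation genes, 1 was higher with DN Ras and 0 lower, with a median of -0.02, against 0.834% of all genes higher. Leaving out DN Ras 3 gave 6 higher and 0 lower, against 3.52% higher. S100A9, a calgranulin of inflamed epithelia, read 11.74, 11.52 and 10.43 with DN Ras and 9.92, 9.65 and 9.50 with the MEK inhibitor, a difference of 1.54 ± 0.28 (adjusted p = 0.030). Replicate 3 was again the lowest DN Ras array, and the call was lost without any array other than DN Ras 3 (adjusted p up to 0.18). LCN2 read 6.75, 6.15 and 5.56 on the MEK inhibitor arrays, and its difference was 2.72 ± 0.62 with all arrays (adjusted p = 0.056) and 3.64 ± 0.26 without DN Ras 3 (adjusted p = 2.65e-05). SAA1, an acute-phase protein, read 7.85, 7.77 and 4.81 with DN Ras and 5.95, 4.40 and 4.41 with the MEK inhibitor. DN Ras 3 thus lay within the MEK inhibitor range, and the difference went from 1.89 ± 0.70 (adjusted p = 0.20) to 2.89 ± 0.36 without it (adjusted p = 0.0010). IGFBP5 went from -0.89 ± 0.95 (adjusted p = 0.70) to -2.33 ± 0.35 (adjusted p = 0.0033), and it was detected on no control array. ATP6V1B1, a proton pump subunit, went from -1.72 ± 0.37 (adjusted p = 0.053) to -2.26 ± 0.17 (adjusted p = 4.22e-05).

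**Figure D4:**
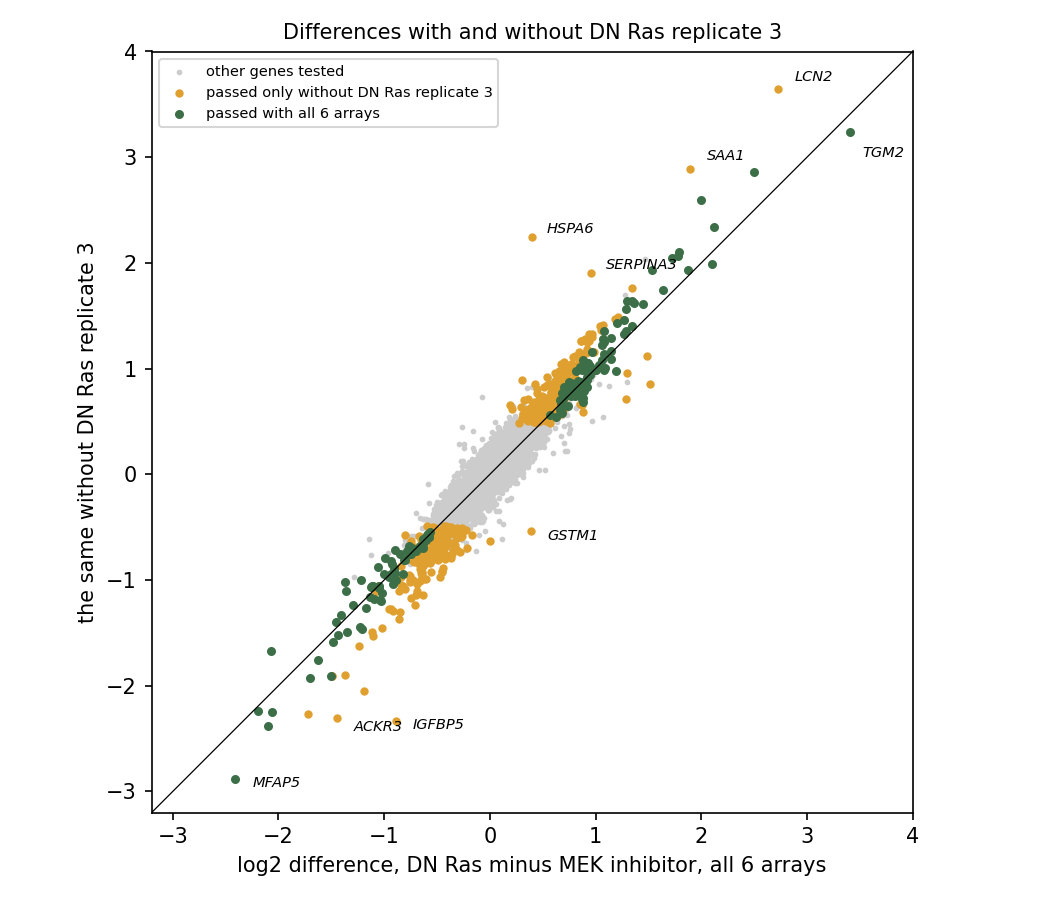
Log2 difference, DN Ras minus MEK inhibitor, with all 6 arrays (x axis) against the same difference without DN Ras replicate 3 (y axis), with 1 point per gene; green genes were called with all 6 arrays, orange genes only without replicate 3, and the line marks equal values. LCN2 moved from 2.72 to 3.64 and IGFBP5 from -0.89 to -2.33, while TGM2 moved from 3.41 to 3.24. The filter on low values was applied again without that array, so that HSPA6, at 0.40 and 2.25 and named after its values were seen, was read by another probe.

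Metabolic and stress genes gave few calls, to be read against 0.834% of all genes higher and 0.638% lower. NRF2 targets had 2 of 15 higher with DN Ras and 0 lower, with a median of 0.05. ABCC3, an export pump for conjugated drugs, read 5.97, 6.70 and 5.38 and was detected on no MEK inhibitor array, at least 2.25-fold apart (adjusted p = 0.012). GCLM, a subunit of the enzyme that starts glutathione synthesis, read 9.38, 9.44 and 8.95 against 8.57, 8.27 and 8.23, a difference of 0.90 ± 0.16 (adjusted p = 0.025), while a second probe gave 0.27 (adjusted p = 0.48). Of 21 glycolysis genes 2 were higher and 0 lower. PFKFB3, which makes the activator of phosphofructokinase, read 8.11, 8.61 and 8.21 against 7.39, 7.40 and 7.39, a difference of 0.91 ± 0.15 (adjusted p = 0.015), though its second probe gave 0.22 (adjusted p = 0.66). ENO2, an enolase, differed by 0.68 ± 0.13 (adjusted p = 0.031). Of 23 ATF4 and unfolded protein response genes 0 were higher and 1 lower, and the median was -0.30. The groups did not overlap, in either direction, for 11 of the 23, against 21.6% of all genes. HSPA5, the chaperone BiP of the endoplasmic reticulum, read 8.85, 8.86 and 9.02 with DN Ras and 9.49, 9.53 and 9.62 with the MEK inhibitor. Its difference was -0.64 ± 0.12 (adjusted p = 0.031), and the control mean of 9.46 lay near the MEK inhibitor mean. Under median scaling ENO2 and HSPA5 missed the threshold (adjusted p = 0.14 and 0.25), though their differences were little changed at 0.70 and -0.64. All of ABCC3, GCLM, PFKFB3, ENO2 and HSPA5 missed it without MEK inhibitor 2 or 3 (adjusted p up to 0.19). All but ABCC3 were also lost without DN Ras 2, GCLM and HSPA5 without DN Ras 1, and ENO2 and HSPA5 without MEK inhibitor 1.

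In the remaining lists, 2 of 13 Notch genes were higher with DN Ras and 0 lower, against 0.834% of all genes higher. NOTCH3, a receptor of the pathway, read 6.65, 6.58 and 6.27 against 5.44, 5.75 and 5.69, and HES1, its transcriptional target, 5.91, 6.16 and 5.82 against 5.24, 5.03 and 4.78. Their differences were 0.87 ± 0.15 (adjusted p = 0.018) and 0.95 ± 0.15 (adjusted p = 0.016), with no overlap of the groups, and both were lost without DN Ras 2 or without MEK inhibitor 2 or 3, and NOTCH3 also without MEK inhibitor 1 (adjusted p up to 0.10). Of 22 YAP and TEAD targets 1 was higher, ANKRD1, a muscle ankyrin repeat protein, which was detected on no MEK inhibitor array and was at least 2.14-fold higher (adjusted p = 0.036). It was called without DN Ras 3 and lost without any other array. The YAP and TEAD targets CCN1 and CCN2 differed by -0.21 and -0.19 and were not called. By limma 0 of 29 ribosome biogenesis genes, 0 of 18 cholesterol synthesis genes and 0 of 18 PI3K, AKT and FOXO genes were called, and their medians were 0.00, -0.13 and -0.02. When DN Ras 3 was left out, with 3.52% of all genes higher and 2.5% lower, the PI3K, AKT and FOXO list had 1 higher and 3 lower, the insulin receptor adaptor IRS1 among the latter, and the other 2 lists had none. In that fit the higher and lower counts were 3 and 0 for Notch genes, 1 and 1 for YAP and TEAD targets, 3 and 0 for NRF2 targets, 3 and 1 for glycolysis, 0 and 2 for ATF4 and unfolded protein response genes, and 1 and 0 for BMP and TGF-beta feedback genes.

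**Figure D5:**
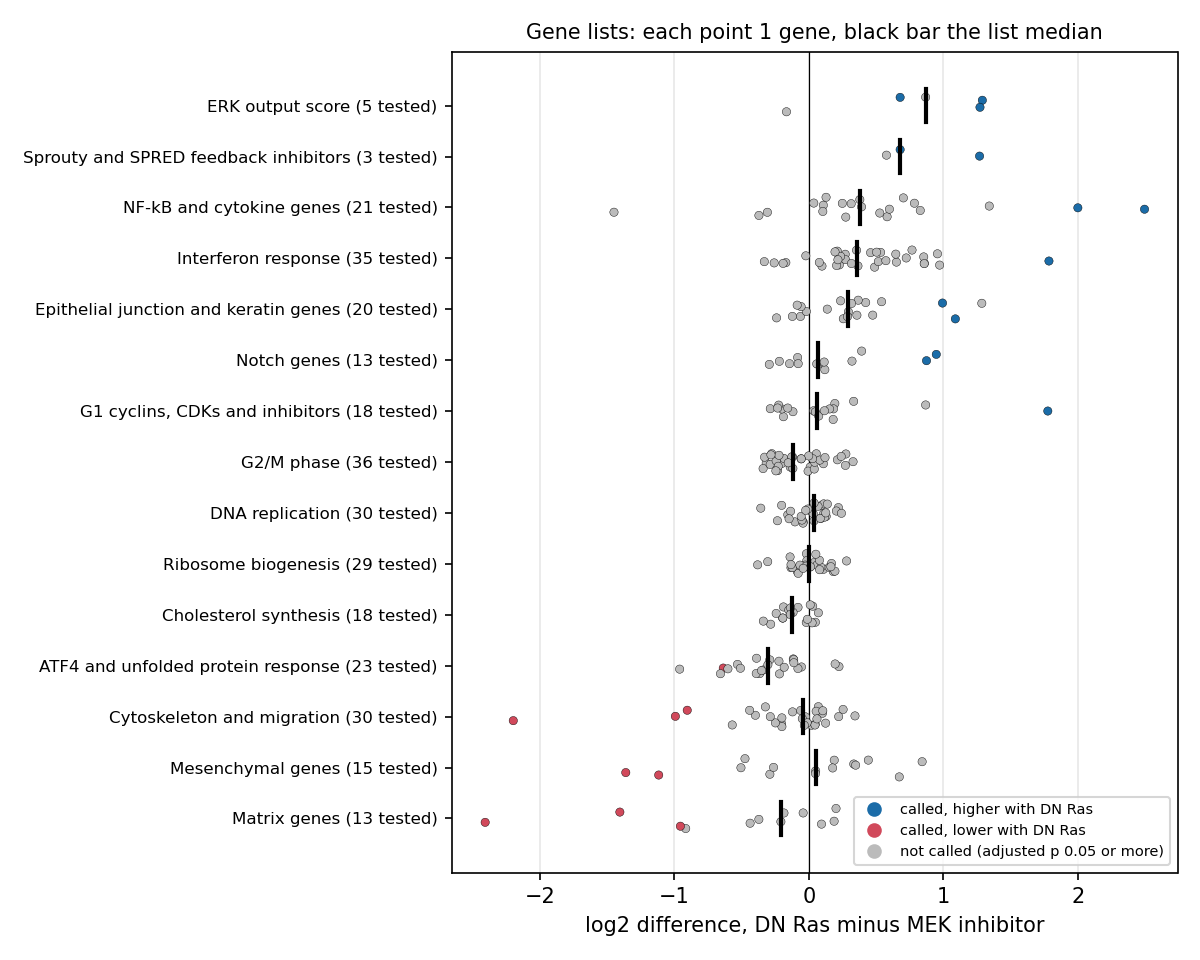
Log2 difference, DN Ras minus MEK inhibitor (x axis), with 1 point per tested gene in 15 lists; called genes are blue where higher and red where lower with DN Ras, other genes are grey, and bars are list medians. The ERK output score has its median at 0.87, whereas DNA replication (0.04) and ribosome biogenesis (0.00) centre near 0.

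Among the remaining largest lower genes, NSG1, a vesicle trafficking protein, read 5.85, 5.01 and 6.0 with DN Ras and 7.40, 7.81 and 7.82 with the MEK inhibitor, a difference of -2.06 ± 0.24 (adjusted p = 0.0028). FOLR1, the folate receptor alpha, read 7.45, 7.24 and 8.02 against 9.28, 9.25 and 9.28. The MEK inhibitor arrays lay close together, and the difference was -1.70 ± 0.18 (adjusted p = 0.0023). MIR503HG, a long noncoding RNA gene, differed by -1.48 ± 0.22 (adjusted p = 0.010), SORCS2, a sorting receptor, by -1.44 ± 0.20 (adjusted p = 0.0097), and GASK1B, a Golgi kinase family member, by -1.50 ± 0.30 (adjusted p = 0.036). DN Ras means of NSG1, FOLR1, MIR503HG and SORCS2 lay within 0.41 of the control mean, on its lower side. The calls of MIR503HG, SORCS2 and GASK1B were lost without MEK inhibitor 2 or 3 (adjusted p up to 0.21), that of MIR503HG also without DN Ras 2, and that of GASK1B without any array but DN Ras 3.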

How the data were processed

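Biotinylated cRNA made from total RNA was read on Illumina bead arrays, per the labels' protocols. The authors deposited a table of raw mean bead intensity per probe with a detection p-value, and in the deposited table these p-values move in steps of 1 part in 770. The submitters' processing notes name GenomeStudio, with no version. The authors also deposited processed intensity values, by steps that the labels do not state; these served as an alternative.

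Intensities of the 12 arrays went through neqc of limma 3.58.1 in R 4.3.3 (background from the detection p-values, offset of 16, quantile normalization, log2). This removes any change shared by most genes. Probes with a detection p under 0.01 on all 3 arrays of either group were kept (16382 of 47322). The platform annotation, which can be old, gave 13403 of these 1 gene symbol, and the brightest probe stood for a gene. The fit was limma's lmFit and eBayes on the 6 arrays, two-sided, with Benjamini-Hochberg adjustment over all genes, and it was tested on simulated data. Where a group detected a gene on no array, the fold is a lower bound: the brighter group's mean against the mean, over the dimmer group's arrays, of the higher of the gene's own signal and the array's lowest detected signal. Such a gene passed the filter through the brighter group alone. Its adjusted p is that of the fitted difference, and the bound was not tested. Called genes had 31 further kept probes in 27 genes; 0 of these were called in the opposite direction and 18 were not called.

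Genes were named by rule: the 12 largest called differences each way whose 3 same-numbered differences had 1 sign, the ERK output score, HRAS, up to 4 called members of each list, and the 5 largest differences called only without DN Ras 3. Other genes in the text were chosen after their values were seen. The comparison, the lists and the rules were chosen with earlier results of these data known. The number of arrays limits the precision.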

Additional observations from a re-analysis of the deposited data

How the results depend on the processing

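Against 150 called genes, leaving out 1 array gave 20 to 621 genes, and the 14 called probes with no gene symbol became 0 to 68. With no filter on dim probes 17 genes of 20045 were called (limma, with 2376 at an unadjusted p under 0.05) and 0 unnamed probes. A fit over all 12 arrays called 481 genes and 57 unnamed probes, and array weights 617 and 37. Without background correction 8 unnamed probes were called. With the sample number as a replicate block, 194 genes were called, 136 of them among the 150, and 34 unnamed probes. Same-numbered samples were no more alike than others: deviations from the group means correlated at 0.14, -0.20 and 0.09 for numbers 1, 2 and 3, and at -0.27 to 0.22 between different numbers. With so few arrays this cannot decide whether the numbers pair the samples. Gene counts under the other settings lay between 128 and 192. The 192 came with median scaling, and 106 of them were among the 150. No gene was called in the direction opposite to its main call under any setting. Of the 52 named genes, values without background correction ended 12 calls (CXCL1, CCND2, NPPB, SPRY2, DUSP5, FOSL1, KRT5, TWIST1, POSTN, ANKRD1, ENO2 and HES1), averaging the probes of a gene ended 3 (PFKFB3, GASK1B and KRT5), the block 1 (KRT5), and no filter 36. The slide as a block was not run, since the headers name no slide. Beads and arrays limit what was detectable: genes near background have only bounds.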

Other observations

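Of the 8 pregnancy-specific glycoprotein genes tested, a placental family named here after their values were seen, 4 were called lower with DN Ras than with the MEK inhibitor, against 0.638% of all genes. PSG9 read 7.79 ± 0.48 (SD, n = 3) with DN Ras, 9.0 ± 0.19 with the MEK inhibitor and 8.44 ± 0.23 in control, a difference of -1.21 ± 0.22 (adjusted p = 0.025). PSG1 differed by -1.06 ± 0.20 (adjusted p = 0.031), PSG3 by -0.90 ± 0.16 and PSG4 by -1.04 ± 0.18 (each adjusted p = 0.024). The control mean lay between the inhibited groups for all 4. These genes are near-identical copies, so probes may read more than 1 of them and the 4 calls may not be separate. Each was called in 2 of the 6 fits that left out 1 array (adjusted p up to 0.17).

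The noncoding RNA gene H19 and the transcription factor gene KLF2 were also chosen after their values were seen. H19 read 5.56, 4.88 and 5.65 with DN Ras and 6.58, 6.74 and 6.82 with the MEK inhibitor, a difference of -1.35 ± 0.19 (adjusted p = 0.0097), and 4.95 ± 0.13 in control. KLF2, known for its role in endothelial quiescence, read 9.98, 9.92 and 10.17 with DN Ras, 8.75, 9.32 and 9.32 with the MEK inhibitor and 7.13 ± 0.15 in control. It was 0.89 ± 0.17 higher with DN Ras (adjusted p = 0.031), with the control mean below both groups. H19 was called in 4 of the 6 fits that left out 1 array (adjusted p up to 0.080) and KLF2 in 2 (up to 0.10).

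Glutathione transferase genes were among those that stood apart on DN Ras replicate 3. GSTM1 read 6.98, 7.13 and 9.84 on the DN Ras arrays, 7.45, 7.66 and 7.68 on the MEK inhibitor arrays and 6.86 ± 0.14 in control. GSTM2 read 5.90, 5.61 and 7.91 against 6.04, 6.60 and 6.45. Both lay above the MEK inhibitor range on that array. SERPINA3, an acute-phase protease inhibitor, read 8.41, 7.40 and 5.07 against 7.0, 5.38 and 5.62, so replicate 3 lay below that range. The probes of GSTM1 and GSTM2 may read related copies of the family.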
